A study of Mus musculus with 15 samples.

Results

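Untreated mouse colon was compared with colon of the group labelled WMW-H, to see what still set the treated tissue apart from normal tissue. The comparison covered 10 of the 15 libraries of the series, 5 per group, and every gene with at least 1 FPKM in at least 5 of the 15 libraries, which was 12917 of 22063 genes in the table. FPKM is a fragment count divided by transcript length and library depth. All 3 groups were wild-type C57BL/6 colon. The Control group had no treatment, and the AOM/DSS group was the colorectal cancer model made with azoxymethane, a carcinogen, and dextran sulfate sodium, which injures the colon lining. The labels of the WMW-H group name only WMW-H as its treatment, and the text of the series presents it as the treated arm of that model. The series title names Wumei Wan, a traditional herbal formula, and an axis of IDO1, kynurenine and AHR. No source used here gives the age, sex, dose, schedule or time of collection, and no group of healthy mice given WMW-H was analysed here. AOM/DSS and WMW-H therefore cannot be told apart as sources of a difference from control, and the AOM/DSS level is given beside the result as a value only.

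The labels call the material colon tissue in one place and colon epithelial cells in another. Epithelial markers were abundant in both groups. Epcam, an epithelial adhesion protein, was at 733 ± 4.4 FPKM in control and 878 ± 33.8 in WMW-H. Vil1, which bundles the actin of microvilli, was at 268 ± 1.66 FPKM in control and 235 ± 5.5 in WMW-H. Markers of other cells were present as well. Col3a1, a fibroblast collagen, was at 71.3 ± 2.63 FPKM in control and 159.7 ± 12.2 in WMW-H, Myh11, the myosin of smooth muscle, at 163 ± 2.16 FPKM in control and 168 ± 8.31 in WMW-H, and Prss2, a trypsinogen of the exocrine pancreas, at 2437 ± 26.2 FPKM in control and 1192 ± 30.9 in WMW-H. In such bulk tissue, fewer cells of a type and less RNA per cell cannot be told apart. Nothing in the labels says that the 5 libraries of a group came from separate animals, so p-values measure only the spread between these libraries.

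In the normal colon, stem cells at the base of the crypts divide under Wnt signals, and their progeny become absorptive colonocytes, mucus-secreting goblet cells and rarer hormone-secreting and tuft cells. The mucosa beneath holds IgA-secreting plasma cells, lymphocytes, macrophages and fibroblasts. Contact with the microbiota keeps a steady level of interferon-responsive and MHC genes in the tissue. After injury and in tumours, wound-repair genes, matrix, myeloid cells and Wnt feedback genes commonly rise, while differentiated functions fall.

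In the main test more genes were called different between the groups than not, but most differences were small. Of 12917 genes, 4570 (35.4%) were called higher in WMW-H and 3116 (24.1%) lower, at an adjusted p under 0.05. The test was limma on log2(FPKM + 1), with p-values adjusted over all genes tested by Benjamini-Hochberg. Differences are WMW-H minus control on that log2 scale, with their standard error (SE), and means are given with their SD over 5 libraries. Together these were 7686 genes, 59.5% of those tested. The median fold among them was 1.23, and 86.1% differed by less than 1.5-fold. A difference of at least 2-fold was reached by 221 genes in the higher direction (1.71%) and 118 in the lower direction (0.914%). Such small differences could be called because libraries of 1 group were very alike, with a median coefficient of variation of 6.96% in control and 7.7% in WMW-H. For 6050 genes (46.8%) the 95% interval of the difference lay wholly within 0.32 of control on the log2 scale. These overlap the calls, since 2062 of them were also called and 3988 were not. The 5 WMW-H libraries lay wholly above or below the 5 control libraries for 5462 genes (42.3%). An exact rank sum test called 3779 genes higher and 2514 lower, so its calls were a minority of the genes tested. Without the expression filter, 4771 of 18399 genes were called higher and 3313 lower, also a minority.

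**Figure D1:**
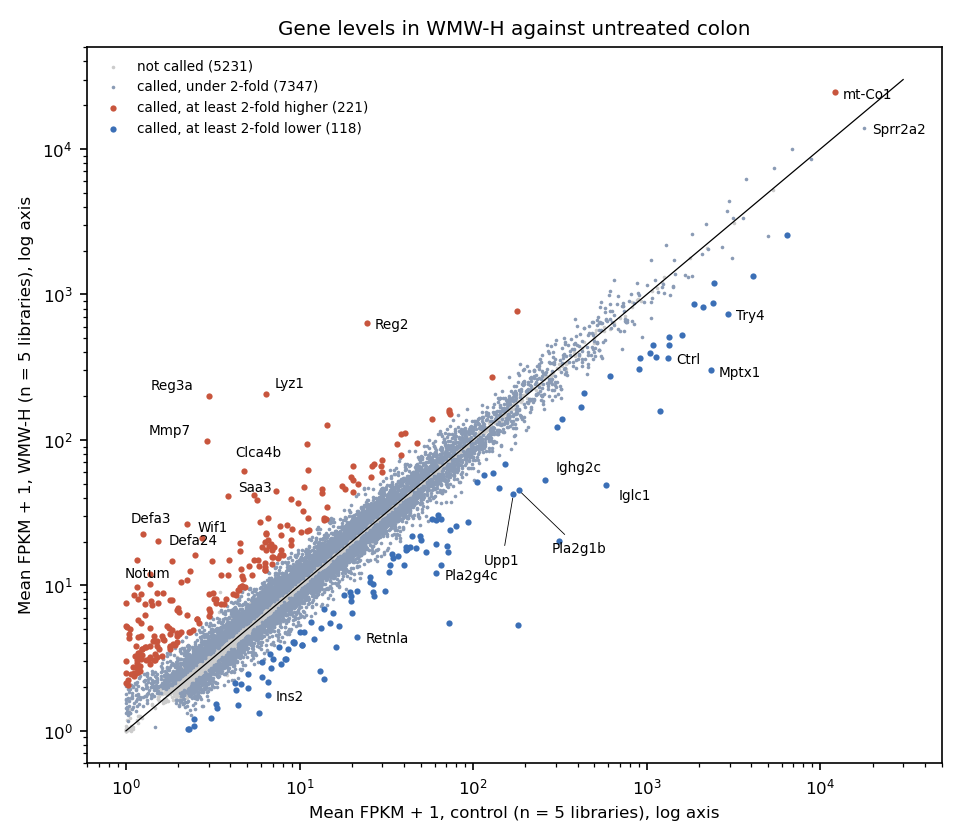
Mean FPKM + 1 of each tested gene in WMW-H (vertical log axis) against control (horizontal log axis), 5 libraries each, with the line of equal level. The 221 genes at least 2-fold higher lie mostly at low control levels, whereas many of the 118 at least 2-fold lower are abundant in control. Named points are the 10 largest rises and 10 largest falls outside immunoglobulin variable segments and unnamed gene models, and mt-Co1 and Sprr2a2.

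The balance of small calls depended on how libraries were scaled and on the base composition of the transcripts, while large differences depended on them less. On the deposited scale 59.5% of calls were higher. That share was 50.1% with median-of-ratios size factors, 48.0% after quantile normalization, 70.6% when the mitochondrially encoded genes were left out and libraries rescaled, and 49.7% when the trend with GC content was removed from each library. The last 2 were added after seeing the data. Across genes, the Spearman correlation of the log2 difference with transcript GC content was -0.294, a description over 12899 genes that are not independent. With genes in 10 equal groups by GC content, 56.1% were called higher and 9.61% lower in the group at a median of 45.3%, and 15% and 43.7% in the group at a median of 59.6%. The relation was not a steady fall, since the group of lowest GC content, at a median of 39.9%, had 33.9% and 19.8%. With the trend removed, 5611 of the 7686 calls remained in the same direction, and the calls of at least 2-fold numbered 201 higher and 133 lower. Whether GC content had a part in a single small difference was not tested. Beside each list described below in which removing the trend moved a count by 2 or more genes, the counts without it are given.

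**Figure D2:**
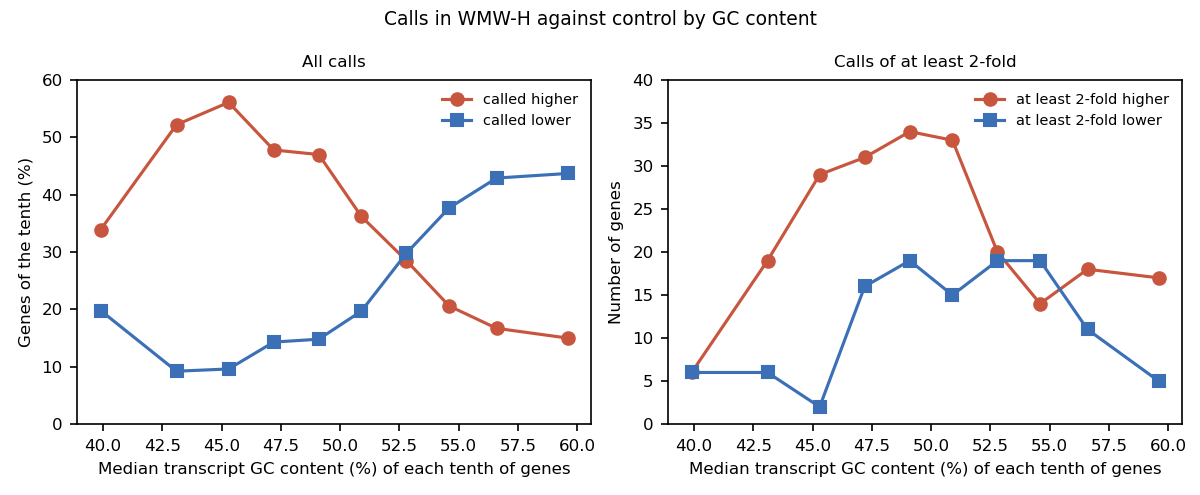
Calls by GC content of the transcript, for 10 equal groups of genes plotted at their median GC percent. Left, the percent of genes called higher is 33.9 at a median of 39.9% GC, peaks at 56.1 at 45.3% and falls to 15 at 59.6%. The percent called lower is 19.8, 9.61 and 43.7 at the same medians. Right, the number of calls of at least 2-fold peaks at middle GC content in both directions.

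Within a group, library profiles correlated at 0.9948 to 0.9954 in control and 0.9923 to 0.9949 in WMW-H, and between the groups at 0.9692 to 0.9722. These are Pearson correlations of log2(FPKM + 1) over the genes tested, given as a description. The first principal component of the 10 libraries held 74.2% of the variance and separated the groups. The second held 4.96% and set WMW-H replicate 3 apart, at -16.8 against -1.24 to 5.75 for the other 9 libraries. Depth read from the steps of low FPKM values was 16200000 to 21000000 fragments per library. Where that replicate moves a value, it is said beside it.

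Reg3a had the largest rise of the named genes and Reg2 the fourth. Both belong to the Reg family, small secreted lectins of the gut and pancreas, some of which bind bacteria. Reg3a (ENSMUSG00000079516) was at 1.78, 1.67, 2.23, 2.07 and 2.2 FPKM in the control libraries and at 202, 213, 184, 196 and 205 in WMW-H. Its paralog Reg2 (ENSMUSG00000023140) was at 24.9, 24.1, 23.6, 22.95 and 21.3 in control and 627, 669, 559.7, 653 and 661 in WMW-H. Both were low in every control library and high in every WMW-H library, with no overlap. The log2 differences were 6.07 (SE 0.092, adjusted p = 2.02e-18) for Reg3a and 4.70 (SE 0.0563, adjusted p = 1.33e-19) for Reg2. In the AOM/DSS libraries Reg3a was at 1.5 ± 0.448 FPKM and Reg2 at 20.4 ± 1.63 (SD, n = 5). Other members of the family also passed the test. Reg3b, a lectin of the intestinal epithelium, was at 178 ± 5.71 FPKM in control and 764 ± 52.7 in WMW-H, with AOM/DSS at 146 ± 3.42. Reg3g, which keeps bacteria off the epithelium, was at 57.3 ± 2.36 FPKM in control and 139 ± 12.8 in WMW-H, with AOM/DSS at 59.05 ± 1.52. Reg4, a marker of deep crypt secretory cells of the colon, was at 71.7 ± 2.33 FPKM in control and 154 ± 10.4 in WMW-H, with AOM/DSS at 191 ± 5.44. Reg1 was at 231 ± 6.74 FPKM in control and 320.0 ± 21.4 in WMW-H, with AOM/DSS at 43.1 ± 2.61. Thus 6 Reg genes were higher than in control, and Reg1 was the one with the smallest difference, 0.47.

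Reg genes are also made in the pancreas, and most pancreatic transcripts were lower in the same libraries. Whether pancreatic tissue had a part in the Reg differences was not tested. In the exocrine pancreas list 3 of 32 tested members were higher and 27 were lower, and its members together took 7.86% of all FPKM in control and 4.004% in WMW-H. Reg1, counted in that list too, was thus one of its 3 higher members.

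Genes of Paneth cells were the next group among the largest rises. Paneth cells sit at crypt bases of the small intestine, secrete lysozyme and alpha-defensins, and are rare in the normal mouse colon. 12 of 16 tested members were higher and 2 were lower, with a median log2 difference of 1.88 against 0.05 over all genes tested. Members of the list together took 0.318% of all FPKM in control and 0.333% in WMW-H. Of the 16, 9 were below 1 FPKM in every control library and could pass the expression filter only through the other groups. Lyz1 (ENSMUSG00000069515), the lysozyme of Paneth cells, was at 4.72, 4.82, 5.82, 5.25 and 6.43 FPKM in control and 205, 204, 201, 203 and 209.8 in WMW-H. Every WMW-H library exceeded every control library, with a log2 difference of 5.01 (SE 0.0533, adjusted p = 3.63e-20). Mmp7 (ENSMUSG00000018623), matrilysin, which activates alpha-defensins and is a Wnt target in intestinal tumours, was at 1.91, 2.26, 1.67, 1.85 and 1.9 in control and 97.4, 101, 90.98, 97.4 and 99.6 in WMW-H. Its log2 difference was 5.08 (SE 0.0461, adjusted p = 8.04e-21). The alpha-defensin Defa3 was at 0.462, 0, 0.136, 0.651 and 0 in control and 17.7, 27.3, 21.3, 19.1 and 23.1 in WMW-H, and Defa24 at 0, 0.822, 0.93, 0.382 and 0.51 and 20.7, 21.4, 14.7, 16.4 and 22.9. Their log2 differences were 4.20 (SE 0.134, adjusted p = 7.91e-14) and 3.75 (SE 0.155, adjusted p = 2.48e-12). In AOM/DSS the means were higher than in WMW-H for all 4 genes, at 444 ± 6.18 for Lyz1, 155 ± 6.42 for Mmp7, 96.8 ± 8.21 for Defa3 and 133 ± 16.01 for Defa24. Alpha-defensin genes are near copies of each other and the split of reads between them is uncertain. Not all members moved. Ang4, a secreted ribonuclease also made by goblet cells, and Nupr1, a stress-response regulator, were lower at -0.29 and -0.24, the former not after quantile normalization (-0.03), while Itln1, a sugar-binding lectin, had a difference of -0.04 and Mptx2, a pentraxin, of 0.10, neither of which passed. With median-of-ratios size factors Itln1 was called lower, at -0.09.

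Acute-phase and epithelial defence genes were higher as a group. 13 of 19 tested members were higher and 5 were lower. Saa3 (ENSMUSG00000040026), a serum amyloid A of inflamed tissue, was at 3.12, 3.72, 3.61, 1.73 and 2.21 FPKM in control and 37.1, 44.7, 36.8, 39.2 and 42.1 in WMW-H, with a log2 difference of 3.43 (SE 0.126, adjusted p = 4.81e-13). Lcn2, lipocalin 2, which binds bacterial siderophores, was at 4.39, 4.01, 4.93, 5.19 and 5.89 in control and 26.4, 29.6, 21.2, 25.997 and 27.4 in WMW-H, a difference of 2.21 (SE 0.0825, adjusted p = 6.06e-13). Neither gene's groups overlapped. The AOM/DSS means were 31.6 ± 3.39 for Saa3, below WMW-H, and 79.1 ± 3.26 for Lcn2, above it. Nos2, inducible nitric oxide synthase, was at 3.34 ± 0.239 FPKM in control and 4.96 ± 0.478 in WMW-H, and Duox2, the epithelial hydrogen peroxide oxidase, at 46.8 ± 0.87 FPKM in control and 58.3 ± 1.48 in WMW-H. The 5 lower members included S100g, a calcium-binding protein, at -1.64, and Retnlb, a goblet-cell antimicrobial resistin-like protein described with the goblet genes.

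**Figure D3:**
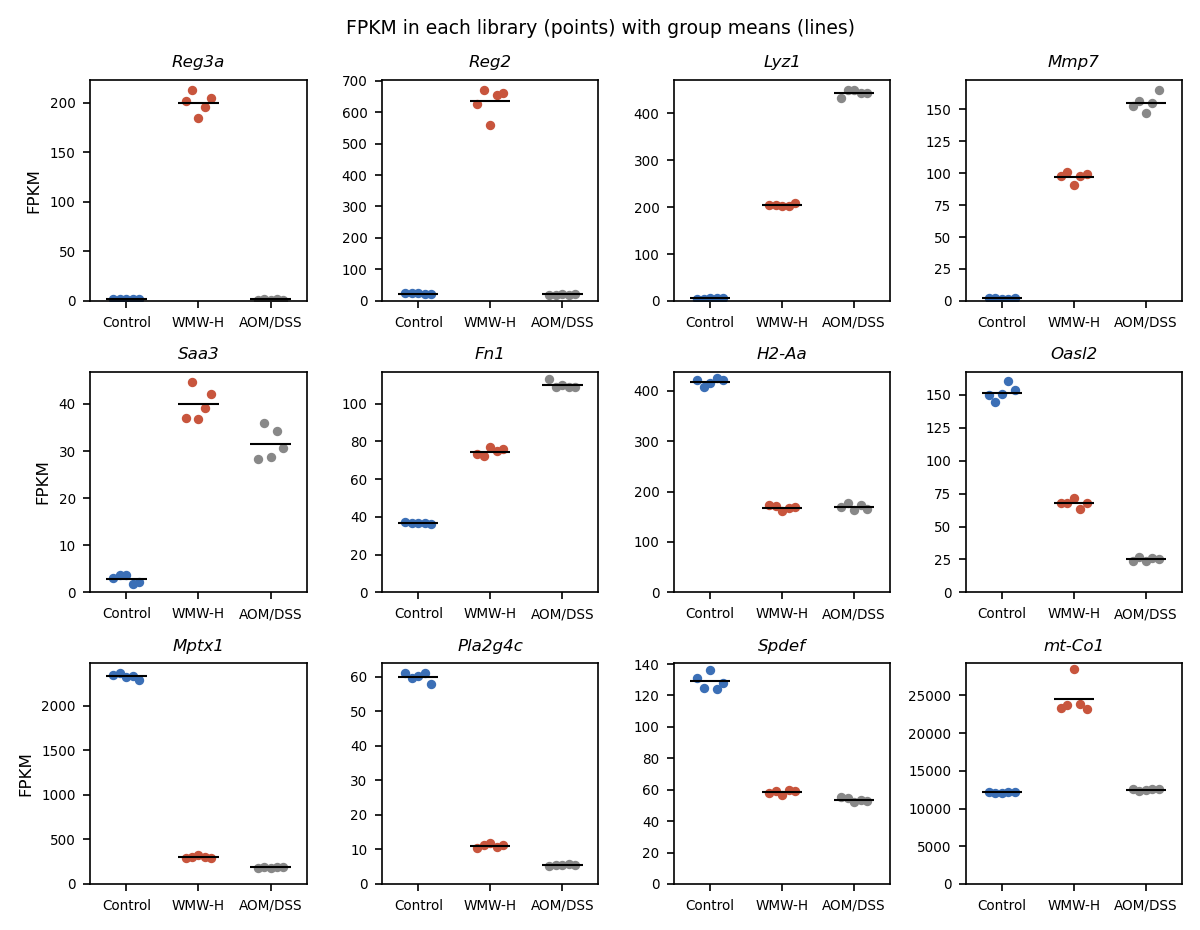
FPKM of 12 genes in each library (points, 5 per group) with group means (lines), axes starting at 0. Reg3a and Reg2 are high in WMW-H only among the groups drawn, Lyz1, Mmp7 and Fn1 lie between control and AOM/DSS, and Mptx1 and Pla2g4c are low in both. The highest WMW-H value of mt-Co1 is replicate 3.

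Wnt feedback inhibitors and targets were higher almost throughout. 22 of 27 tested members were higher and 0 were lower, with a median log2 difference of 0.59, and 4 members were below 1 FPKM in every control library. With the GC trend removed the counts were 21 and 1. Mmp7, described with the Paneth genes, is counted in this list too and had its smallest p in limma. Secreted antagonists were also among the largest rises of the list. Notum (ENSMUSG00000042988), which strips the lipid from Wnt proteins, was at 0.212, 0.18, 0.155, 0.106 and 0.133 FPKM in control and 13.4, 13.8, 13.1, 15.4 and 14.6 in WMW-H. Wif1 (ENSMUSG00000020218), which binds Wnt proteins, was at 1.26, 0.925, 1.02, 1.72 and 1.3 in control and 26.4, 25.7, 22.8, 25.8 and 27.1 in WMW-H. Both were low in control and had no overlap with WMW-H, with log2 differences of 3.70 (SE 0.0478, adjusted p = 2.59e-19) and 3.57 (SE 0.0722, adjusted p = 1.47e-16). Apcdd1, a membrane inhibitor of Wnt receptors, was at 2.15 ± 0.182 FPKM in control and 13.6 ± 0.804 in WMW-H, a difference of 2.21 (SE 0.0492, adjusted p = 5.41e-16). Inside the cell, Nkd1, a feedback inhibitor that binds Dishevelled, was at 5.67, 6.31, 6.84, 6.17 and 6.53 in control and 44.2, 40.6, 44.8, 44.4 and 44.2 in WMW-H, a difference of 2.61 (SE 0.039, adjusted p = 1.68e-18). Axin2, the scaffold most used as a Wnt reporter, was at 12.8, 13.6, 14.3, 17.6 and 12.7 in control and 20.1, 18.8, 17.8, 20.3 and 21.2 in WMW-H, and its difference was smaller, 0.45 (SE 0.0685, adjusted p = 2.95e-05).

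Among nuclear factors and targets, Prox1, a homeobox factor of intestinal tumours, was at 0.834 ± 0.15 FPKM in control and 6.87 ± 0.248 in WMW-H, a log2 difference of 2.10 (SE 0.0542, adjusted p = 3.76e-15). Lef1, a partner of beta-catenin, was at 0.722 ± 0.0707 FPKM in control and 1.95 ± 0.0587 in WMW-H, a difference of 0.78, and Sox4 at 6.76 ± 0.604 FPKM in control and 15.1 ± 0.779 in WMW-H, a difference of 1.05. Myc and Ccnd1, which drive growth and the entry into S phase, had small differences of 0.33 and 0.57. Ascl2, a stem cell factor, did not pass, at -0.17 (95% interval -0.33 to 0), but was called lower without WMW-H replicate 5 (-0.22), without control replicate 2 (-0.20) or 4 (-0.22), after quantile normalization (-0.24) and with median-of-ratios size factors (-0.21). For each of these genes except Ccnd1 and Ascl2 the WMW-H mean lay between the other 2 groups, with AOM/DSS at 47.4 ± 1.82 for Notum, 85.9 ± 1.62 for Wif1, 46.2 ± 1.91 for Apcdd1, 139 ± 2.15 for Nkd1, 47.4 ± 1.31 for Axin2 and 24.2 ± 0.965 for Prox1. The AOM/DSS mean of Ccnd1 was 33.7 ± 1.82, against 34.9 ± 0.804 in WMW-H.

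Crypt stem cell genes were mixed, and repair genes were higher. In the stem cell list 8 of 15 tested members were higher and 3 were lower, beside 35.4% and 24.1% of all genes tested. The counts with the GC trend removed were 7 and 5. Lgr5, the receptor that marks crypt base stem cells, was at 1.54, 1.87, 1.9, 1.75 and 2.06 in control and 3.88, 4.06, 3.12, 3.38 and 3.56 in WMW-H, a difference of 0.70 (SE 0.0666, adjusted p = 1.16e-07). Smoc2, a matrix protein of stem cells, was higher by 1.07 and Prom1, a membrane glycoprotein, by 0.82. Aqp4, a water channel of the crypt base, was lower at -0.94. In the list of fetal-like repair and YAP targets, genes that wounded epithelium re-expresses, 15 of 17 tested members were higher and 1 was lower, with a median of 0.65 and 1 member below 1 FPKM in every control library. Members of that list together took 0.471% of all FPKM in control and 0.472% in WMW-H. Clu, clusterin of revival stem cells, was at 58.5 ± 2.4 FPKM in control and 90.0 ± 2.79 in WMW-H, a difference of 0.61 (SE 0.0302, adjusted p = 2.58e-11), and Anxa1, an annexin of wound edges, at 39.5 ± 0.934 FPKM in control and 66.8 ± 2.7 in WMW-H, a difference of 0.74 (SE 0.0417, adjusted p = 1.37e-10). Ly6a, often used as a marker of this state, did not follow, with a difference of -0.03 (95% interval -0.11 to 0.05) that was called lower with the GC trend removed, at -0.17, and with median-of-ratios size factors, at -0.09. Krt19, an epithelial keratin, was lower at -0.30. The AOM/DSS means were 159 ± 3.89 for Clu and 53.02 ± 3.59 for Anxa1, so that Anxa1 had its highest group mean in WMW-H.

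Most cell division genes were near the control level on the deposited scale. In the list of DNA replication and mitosis 6 of 30 tested members were higher and 9 were lower, beside 35.4% and 24.1% of all genes tested. Of the 30, 23 had an interval wholly within 0.32 on the log2 scale, and the median difference of the list was 0. Mcm2, a subunit of the replicative helicase, was at 14.7, 14.98, 15.2, 16.4 and 14.4 in control and 15.4, 15.3, 14.8, 15.3 and 14.7 in WMW-H, overlapping groups with an interval of -0.08 to 0.07. Pcna, the sliding clamp, was higher at 0.39 (adjusted p = 3.34e-08), and Mki67, the Ki-67 antigen, lower at -0.49 (adjusted p = 3.89e-08). With the GC trend removed the list had 3 higher and 16 lower members, with a median of -0.10. Over all 12899 genes that setting called 3420 higher and 3468 lower, so the lower share was then larger in this list. Of 20 p53 targets, 9 were higher and 3 lower, and 6 and 3 with the trend removed. Beside the shares over all genes, these counts do not set the p53 list apart. Cdkn1a, the cell cycle inhibitor p21, was among the lower, at 173 ± 3.57 FPKM in control and 107 ± 2.13 in WMW-H, a difference of -0.69 (SE 0.021, adjusted p = 3.63e-14).

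Matrix and vessel genes were higher. 31 of 34 tested members were higher and 1 was lower in the fibroblast and matrix list, with a median of 0.74 and 2 members below 1 FPKM in every control library. The counts with the GC trend removed were 33 and 1. Collagen genes were led by Col1a1, at 18.7, 19.1, 19.9, 19.5 and 19.1 FPKM in control and 44.4, 42.9, 38.8, 43.6 and 44.4 in WMW-H, and Col3a1, at 73.3, 70.7, 74.3, 70.3 and 67.7 and 167, 157, 139, 167 and 167. The groups did not overlap for either gene, and the lowest WMW-H value in both was replicate 3. Their log2 differences were 1.11 (SE 0.0364, adjusted p = 1.08e-13) and 1.15 (SE 0.046, adjusted p = 1.6e-12), and the AOM/DSS means were 50.1 ± 1.52 and 142 ± 5.74. Fn1, fibronectin, was at 36.8 ± 0.331 FPKM in control and 74.5 ± 1.94 in WMW-H, a difference of 0.998 (SE 0.0227, adjusted p = 7.16e-16), and at 109.8 ± 1.9 in AOM/DSS. Larger differences at lower levels were found in matrix proteases and their inhibitor. Mmp3, stromelysin 1, was at 0.42, 0.35, 0.278, 0.682 and 0.8 in control and 7.65, 7.93, 8.18, 8.41 and 7.39 in WMW-H, a difference of 2.58 (SE 0.0819, adjusted p = 7.32e-14). Mmp10, stromelysin 2, was higher by 2.13 (SE 0.0787, adjusted p = 5.12e-13), and Timp1, an inhibitor of these proteases, was at 1.21, 1.69, 1.37, 1.06 and 0.846 in control and 8.96, 10.7, 10.9, 8.65 and 10.3 in WMW-H, a difference of 2.29 (SE 0.097, adjusted p = 3.29e-12). Mmp3 and Timp1 had higher means in WMW-H than in AOM/DSS, where they were 4.03 ± 0.187 and 6.9 ± 0.81, and so had Grem1, a BMP antagonist of crypt fibroblasts, at 17.4 ± 1.34 against 13.3 ± 0.764, with 6.09 ± 0.462 in control. Postn, periostin, was the lower member of the list, at -0.16.

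In the endothelium list 14 of 18 tested members were higher and 0 were lower, with a median of 0.32. After quantile normalization these counts were 10 and 2. Pecam1, an adhesion protein of endothelial junctions, was at 17.999 ± 0.377 FPKM in control and 23.9 ± 0.939 in WMW-H, a difference of 0.39 (SE 0.0343, adjusted p = 4.29e-08). Cdh5, the cadherin of these junctions, was higher by 0.58, and Lyve1, a lymphatic receptor for hyaluronan, by 0.54. Prox1, also a lymphatic factor, is in this list and in the Wnt list. Smooth muscle genes were split, with 8 of 18 higher and 5 lower (7 and 3 with the GC trend removed). Over all genes tested the shares were 35.4% and 24.1%, so these counts do not set the list apart. Myh11 had an interval of -0.02 to 0.11. Without the mitochondrially encoded genes it was called higher, at 0.12.

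Myeloid and mast cell genes were higher, while most lymphocyte genes were lower. 19 of 22 tested members were higher and 2 were lower in the macrophage and monocyte list, with a median of 0.53. Lyz2, the lysozyme of myeloid cells, was at 119, 129.8, 128, 132 and 125 FPKM in control and 275, 279, 257, 267 and 272 in WMW-H, a log2 difference of 1.08 (SE 0.0289, adjusted p = 5.74e-15). Mpeg1, a pore-forming protein of macrophages, was at 13.2 ± 0.516 FPKM in control and 27.5 ± 1.33 in WMW-H, a difference of 1.003 (SE 0.0369, adjusted p = 5.08e-13), and Adgre1, a surface antigen of macrophages, was higher by 0.39 (adjusted p = 0.00101). Cd163, a scavenger receptor of resident macrophages, and Ly6c2, a marker of inflammatory monocytes, were lower at -0.37 and -0.78. Ptprc, the leukocyte antigen CD45, was lower, at 9.31, 9.35, 9.02, 9.77 and 8.39 in control and 6.08, 5.25, 7.05, 5.66 and 6.25 in WMW-H, a difference of -0.53 (SE 0.0631, adjusted p = 1.74e-06).

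Most neutrophil genes were near 0 in control. 8 of 9 tested members were higher and 1 was lower in that list. Of the 9, 6 were below 1 FPKM in every control library and could pass the expression filter only through the other groups. With no filter 13 of 16 members were higher and 1 lower, and the median log2 difference was 0.62 instead of 0.99. S100a8 and S100a9, the subunits of calprotectin, were listed at 0, 0, 0, 0 and 0 and at 0.456, 0, 0, 0 and 0.313 FPKM in control and at 4.21, 5.83, 1.89, 4.96 and 4.27 and 9.06, 8.93, 7.63, 7.11 and 10.6 in WMW-H. Every WMW-H library was above every control library, and WMW-H replicate 3 had the lowest S100a8. The AOM/DSS means were 11.6 ± 2.48 for S100a8 and 19.3 ± 1.57 for S100a9. Ly6g, the surface antigen of mouse neutrophils, was at 9.47 ± 1.28 FPKM in control and 31.3 ± 2.93 in WMW-H, a difference of 1.63 (SE 0.0854, adjusted p = 5.49e-11). Retnlg, a resistin-like protein of neutrophils, was lower at -0.45 (adjusted p = 0.0207), a call that was lost without WMW-H replicate 1 or 3 or control replicate 2, with adjusted p of 0.0634, 0.051 and 0.0629, and in an exact rank sum test (0.0581).

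Of the mast cell list, 6 of 8 tested members were higher and 1 was lower. Of the 8, 4 were below 1 FPKM in every control library and could pass the expression filter only through the other groups. With no filter 8 of 12 members were higher and 1 lower, and the median log2 difference was 0.88 instead of 1.55. Mcpt1 (ENSMUSG00000022227), the protease of mucosal mast cells, was at 4.95, 4.36, 3.51, 4.11 and 5.37 in control and 40.8, 44.6, 39.2, 40.3 and 39.99 in WMW-H, and Mcpt2 at 2.27, 1.46, 1.52, 1.81 and 1.71 and 19.4, 21.6, 21.8, 17.4 and 20.4. The groups were wholly apart for both, with log2 differences of 2.95 (SE 0.071, adjusted p = 1.49e-15) and 2.94 (SE 0.0776, adjusted p = 5.11e-15). In AOM/DSS they were at 49.1 ± 2.11 and 21.5 ± 1.62. The proteases of connective tissue mast cells Mcpt4, Tpsb2 and Cma1 were higher by 1.90, 1.59 and 1.504. Kit, the stem cell factor receptor that other cells of the gut also carry, was lower at -0.33, and Hpgds, a prostaglandin D synthase, did not pass, at 0.06. Of the dendritic cell list, 4 of 12 members reached the filter and 0 passed the test. Their unadjusted p in limma ran from 0.0723 for Ccl22, a chemokine, to 0.803 for Ccr7, a lymph-node homing receptor, so 0 were under 0.05, and an exact rank sum test also called 0. Ccl22 was called higher without WMW-H replicate 1 and without the mitochondrially encoded genes, at 0.19 in each.

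Cytokine and chemokine genes were higher in the main. 16 of 24 tested members were higher and 2 were lower. Of the 24, 8 were below 1 FPKM in every control library and could pass the expression filter only through the other groups. With no filter 20 of 33 members were higher, and the median log2 difference was 0.24 instead of 0.53. The counts with the GC trend removed were 15 and 4. The neutrophil attractant Cxcl5 was at 0, 0.036, 0.247, 0.136 and 0.136 in control and 6.85, 8.06, 7.06, 8.05 and 8.03 in WMW-H, a difference of 2.96 (SE 0.0637, adjusted p = 3.62e-16). Il1b was at 1.15, 1.14, 0.985, 1.77 and 1.26 in control and 5.38, 5.79, 4.69, 6.02 and 4.5 in WMW-H, a difference of 1.47 (SE 0.0896, adjusted p = 3.83e-10). Both lay below their AOM/DSS means of 23.3 ± 0.728 and 10.3 ± 0.782. Il18, an epithelial cytokine, was higher by 1.04 (SE 0.0491, adjusted p = 1.43e-11). Il33, an alarmin that activates innate lymphoid and mast cells, was at 2.19 ± 0.29 FPKM in control and 7.89 ± 1.02 in WMW-H, a difference of 1.47 (SE 0.0826, adjusted p = 1.34e-10), with AOM/DSS at 5.74 ± 0.549. Against this direction, the interferon-induced chemokine Cxcl10 was lower, at 7.51 ± 0.741 FPKM in control and 3.62 ± 0.692 in WMW-H, a difference of -0.89 (SE 0.138, adjusted p = 3.25e-05), and Ccl4 was lower at -0.46, a call lost in an exact rank sum test (adjusted p = 0.0581). Ccl20, which attracts lymphocytes, and Cxcl9, another interferon-induced chemokine, did not pass, at -0.02 and -0.08, and Cxcl9 was called lower, at -0.26, with the GC trend removed.

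Interferon-responsive genes were lower than in untreated colon. These genes respond to transcription factors that bind an interferon-stimulated response element. Its core was searched as GAAA, any 2 bases and GAAA again, on both strands. The search covered the 250 bases before each annotated start, in promoter sequences of RefSeq (build GRCm38.p6). Overlapping matches were counted separately. A match was found for 11 of the 23 type I interferon-stimulated genes that the promoter table holds and for 10 of the 11 interferon gamma-induced GTPase genes, against 3.46% of all 27025 genes and 2.98% of 32851 windows. The core was also found for 5 of 21 cytosolic ribosomal protein genes, a list mostly higher in WMW-H. It was found for 3 of 18 genes of the MHC class I list and 2 of 12 of the cytotoxic and intraepithelial lymphocyte list. For MHC class II genes, the letters CTGATTGG, the inverted CCAAT box with its flank, were found in 4 of 9, against 4.43% of all genes and 3.83% of windows. They were also found in 10 of 23 genes of the unfolded protein response list, 6 of 18 of the MHC class I list and 5 of 21 of the cholesterol and fatty acid synthesis list, so they do not set the class II list apart. The 5 promoter stretches below are picked examples with a match, from genes among the 4 of smallest p in their lists. The promoters of Oasl2 and Cd74, first by p in the type I and class II lists, are not shown. Each printed stretch is read on the strand of its gene, from 40 bases before the first match to 40 after the last, or to the base before the start where that comes first. Capitals mark the matches, and the paired matches of Oas1a overlap. The last match lay 14 to 5 bases before the start in Oas1a, 19 to 10 in Ddx60, 75 to 66 in Oas3, 34 to 25 in Igtp and 51 to 44 in H2-Aa. A match is a description of letters and not a proven site.
Oas1a, chr5:120907526-120907585, - strand: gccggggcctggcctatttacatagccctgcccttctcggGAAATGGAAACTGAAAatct
Ddx60, chr8:61927994-61928086, + strand: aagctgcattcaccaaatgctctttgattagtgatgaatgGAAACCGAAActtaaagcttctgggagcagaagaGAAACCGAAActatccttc
Oas3, chr5:120777685-120777774, - strand: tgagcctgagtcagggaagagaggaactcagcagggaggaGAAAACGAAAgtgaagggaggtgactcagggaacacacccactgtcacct
Igtp, chr11:58199482-58199555, + strand: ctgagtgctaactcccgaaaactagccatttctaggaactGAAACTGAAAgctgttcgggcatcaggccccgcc
H2-Aa, chr17:34287827-34287914, - strand: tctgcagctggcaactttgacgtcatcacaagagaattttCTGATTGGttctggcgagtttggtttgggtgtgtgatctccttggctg

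In the type I list, 0 of 33 tested members were higher and 29 were lower, with a median of -0.62, and in AOM/DSS against the same control libraries the median was -1.55. With the GC trend removed, 32 of 33 were lower. Oas1a, a sensor of double-stranded RNA that activates RNase L, was at 109, 117, 115, 116 and 114 FPKM in control and 57.7, 58.4, 49.7, 58.1 and 58.2 in WMW-H. Ddx60, a helicase of the RNA sensing pathway, was at 25.6, 26.8, 23.9, 25.4 and 25.05 in control and 9.24, 8.4, 8.76, 9.58 and 9.75 in WMW-H. For both genes the 5 control libraries were all higher, with log2 differences of -1.01 (SE 0.041, adjusted p = 2.01e-12) and -1.38 (SE 0.0576, adjusted p = 2.79e-12). Oas3 was at 39.8 ± 1.16 FPKM in control and 16.5 ± 0.756 in WMW-H, a difference of -1.23 (SE 0.0539, adjusted p = 5.51e-12), and Oasl2 at 152 ± 6.08 FPKM in control and 67.8 ± 2.98 in WMW-H, a difference of -1.15 (SE 0.0391, adjusted p = 1.81e-13). The AOM/DSS means of these 4 genes were lower still, at 41.8 ± 1.58 for Oas1a, 2.52 ± 0.295 for Ddx60, 6.59 ± 0.676 for Oas3 and 25.2 ± 1.3 for Oasl2. The regulator Irf7, which amplifies interferon signals, was lower at -0.52 (adjusted p = 4.05e-11). The 4 other members did not pass, and 3 of them belong to the Ifit family that binds viral RNA. Ifit2 was at 15.1, 17.6, 15.6, 16.1 and 14.7 in control and 14.1, 15.2, 13.6, 14.7 and 13.9 in WMW-H, with an interval of -0.26 to 0, and Ifit3 had an interval of -0.20 to 0.04. With the GC trend removed both were called lower, at -0.28 and -0.22, and Ifit2 was also called without control replicate 5 (-0.16), in a fit of only the 10 libraries compared (-0.13), after quantile normalization (-0.19) and with median-of-ratios size factors (-0.18). In AOM/DSS, Ifit2 and Ifit3 were at 3.78 ± 0.447 and 5.34 ± 0.542. The related Ifit1, in contrast, was lower at -0.58 (adjusted p = 9.69e-07).

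Among the GTPases that interferon gamma induces to attack vacuoles of intracellular microbes, 1 of 14 tested members was higher and 11 were lower. Igtp was at 40.7, 41.1, 40.6, 38.96 and 40.7 in control and 17.7, 18.5, 15.6, 16.5 and 16.1 in WMW-H, a log2 difference of -1.21 (SE 0.0434, adjusted p = 3.41e-13), and its AOM/DSS mean was 8.69 ± 0.401. Iigp1 was at 15.8 ± 0.528 FPKM in control and 4.28 ± 0.533 in WMW-H, a difference of -1.68 (SE 0.0773, adjusted p = 1.03e-11). Irgm1 and Irgm2, regulators of this family, were lower at -0.72 and -0.75, and the guanylate-binding protein Gbp5 was the higher member, at 0.38.

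Antigen presentation genes were lower in both MHC classes. In the class II list 1 of 11 tested members was higher and 10 were lower, with a median of -1.01. H2-Aa (ENSMUSG00000036594), the alpha chain of I-A, was at 420.4, 407, 416, 425 and 421 FPKM in control and 172, 171, 162, 166 and 169.7 in WMW-H. Cd74, the invariant chain, was at 1035, 1040.2, 1067, 1045 and 1046 in control and 399.6, 394, 412, 382 and 399.8 in WMW-H. All control libraries lay above all WMW-H libraries for both, with log2 differences of -1.31 (SE 0.0251, adjusted p = 6.95e-17) and -1.39 (SE 0.0202, adjusted p = 1.19e-18). Ciita, the master regulator of class II genes, was at 5.77 ± 0.278 FPKM in control and 2.38 ± 0.236 in WMW-H, a difference of -1.01 (SE 0.0575, adjusted p = 1.74e-10). AOM/DSS was at 169.9 ± 5.79 for H2-Aa, 491 ± 7.24 for Cd74 and 2.4 ± 0.142 for Ciita. Ctss, the protease that trims the invariant chain and that macrophages also make, was the higher member at 0.25, and that call was lost with the GC trend removed (0.07, adjusted p = 0.118 in limma). In the class I list 2 of 22 tested members were higher and 19 were lower, with a median of -0.51. Tap1, a peptide transporter, was at 45.9 ± 1.04 FPKM in control and 17.1 ± 1.15 in WMW-H, a difference of -1.38 (SE 0.0409, adjusted p = 2.68e-14), and Psmb8, an immunoproteasome subunit, at 100.4 ± 2.72 FPKM in control and 52.4 ± 2.66 in WMW-H, a difference of -0.93 (SE 0.0402, adjusted p = 4.42e-12). H2-K1, a class I heavy chain, and B2m, its light chain, were lower at -0.61 and -0.46. Class I genes of the H2 cluster are near copies, so the split of reads between them is uncertain. Erap1, which trims peptides, was higher at 0.43. B cells carry much class II, and their markers were lower in the same libraries (next paragraph), a part in the class II result that was not tested.

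**Figure D4:**
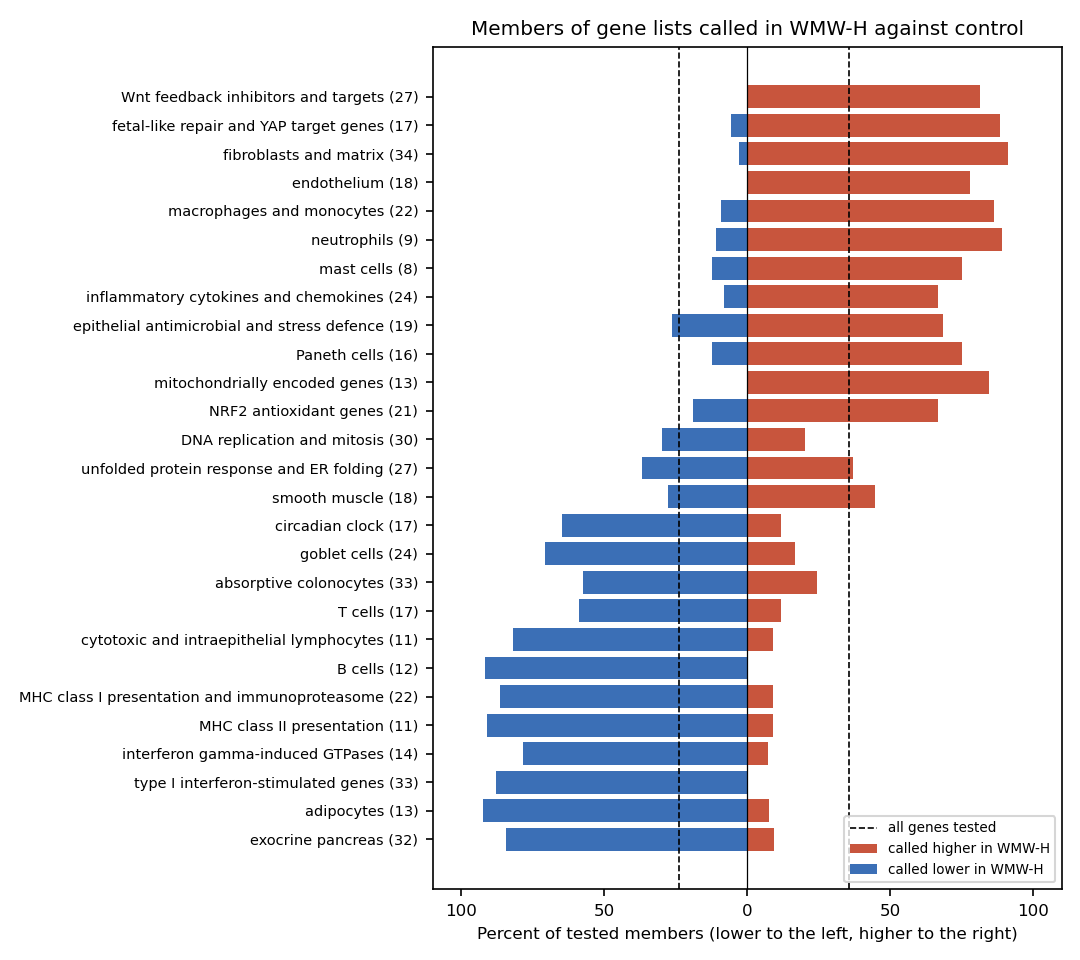
Percent of tested members of 27 gene lists called higher (right) or lower (left) in WMW-H than in control, with the number tested in parentheses and dashed lines at the shares over all genes tested, 35.4% and 24.1%. Wnt, repair, matrix and myeloid lists extend to the right, and interferon, MHC, lymphocyte, adipocyte and pancreas lists to the left.

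B cell genes were lower in 11 of 12 tested members and higher in 0, with a median of -0.86. Of the 12, 5 were below 1 FPKM in every WMW-H library and could pass the expression filter only through the other groups. With no filter 13 of 15 members were lower and 0 higher, with a median of -0.71. Cd79a, a signalling chain of the B cell receptor, was at 15.1, 15.8, 18.6, 17.3 and 18.4 FPKM in control and 7.26, 7.48, 6.96, 8.51 and 7.75 in WMW-H, a log2 difference of -1.07 (SE 0.0646, adjusted p = 3.68e-10). Ighd, the constant region of IgD on naive B cells, was at 6.36, 5.12, 6.08, 5.68 and 6.01 in control and 1.15, 2.02, 1.73, 1.13 and 2.4 in WMW-H, and Fcmr, the receptor for IgM, at 4.32, 3.55, 3.97, 4.54 and 3.74 and 1.16, 0.613, 0.917, 1.1 and 0.992. None of these 3 genes had overlapping groups. AOM/DSS stood at 15.04 ± 1.12 for Cd79a, 4.79 ± 0.972 for Ighd and 3.48 ± 0.466 for Fcmr, above WMW-H and below control, and the median of the list was -0.07 in AOM/DSS minus control. The labels do not say whether lymphoid follicles were part of each sample.

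Plasma cell genes and IgA were lower. 3 of 21 tested members were higher and 15 were lower. Igha, the heavy chain of IgA, was at 4919, 5022, 5018, 5056 and 5067 FPKM in control and 2587, 2569, 2366, 2562 and 2613 in WMW-H, a log2 difference of -0.98 (SE 0.0245, adjusted p = 2.41e-15). Jchain, which joins IgA dimers, was at 499.7 ± 11.2 FPKM in control and 374 ± 22.05 in WMW-H, a difference of -0.42 (SE 0.0392, adjusted p = 1.01e-07), and Pigr, which carries them through the epithelium, differed by only -0.12, a call that was lost after quantile normalization and without the mitochondrially encoded genes. The largest fall outside the variable segments was Iglc1 (ENSMUSG00000105906), a lambda light chain constant region, at 575, 613, 529.5, 615 and 576 in control and 47.3, 48.7, 47.4, 50.5 and 44.8 in WMW-H. Its difference was -3.58 (SE 0.0468, adjusted p = 2.82e-19). Ighg2c, the heavy chain of IgG2c, was at 259 ± 4.88 FPKM in control and 51.7 ± 2.29 in WMW-H, a difference of -2.30 (SE 0.0277, adjusted p = 1.33e-19). Other constant regions did not follow. Igkc, the kappa constant region, was at 3176 ± 67.01 FPKM in control and 3095 ± 145 in WMW-H, with overlapping groups and an interval of -0.11 to 0.03, though it was called lower without WMW-H replicate 3 (-0.07), with median-of-ratios size factors (-0.09) and with the GC trend removed (-0.16). Ighg1 was higher at 0.27. AOM/DSS means were 2949.6 ± 55.1 for Igha, 61.9 ± 3.98 for Iglc1 and 139 ± 2.39 for Ighg2c.

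Variable segments of immunoglobulins, which each clone of B cells joins anew, differed in both directions. Of 164 tested segments, 62 were higher and 68 lower in WMW-H, and 30 and 31 of them by at least 2-fold. They made up 13.6% of all rises and 26.3% of all falls of at least 2-fold. The 3 segments given here were picked after their values were seen, to show the spread within groups. Ighv2-2 was at 175, 217, 162, 171 and 171 FPKM in control and 3.83, 4.33, 6.42, 4.17 and 2.95 in WMW-H. Igkv3-12 was at 13.7, 13.3, 13.6, 12.05 and 13.98 in control and 117, 132, 130.0, 124 and 122 in WMW-H. Ighv5-4 was at 8.46, 13.2, 9.3, 11.2 and 7.66 and 97.2, 90.3, 102, 90.4 and 85.5. Each segment was at a similar level in the 5 libraries of a group and many times apart between groups. Whether the libraries of a group came from separate animals was not tested. In AOM/DSS they were at 8.64, 9.01, 7.6, 10.9 and 8.15, 12.3, 11.4, 13.04, 10.4 and 9.71 and 17.5, 17.3, 20.3, 19.4 and 19.7, also similar within the group. Similar segments share reads, so their levels are uncertain.

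T cell and cytotoxic genes were mostly lower. 2 of 17 tested members were higher and 10 were lower in the T cell list, and 9 of 11 cytotoxic and intraepithelial lymphocyte genes were lower and 1 higher. Cd8a, the co-receptor of cytotoxic T cells, was at 4.21, 4.08, 2.92, 3.4 and 3.36 in control and 0.974, 1.17, 0.761, 0.882 and 1.64 in WMW-H, a difference of -1.15 (SE 0.102, adjusted p = 4.92e-08). Gzma, granzyme A, was at 8.3, 9.74, 8.94, 10.2 and 9.24 in control and 1.88, 2.54, 4.59, 2.34 and 3.13 in WMW-H, a difference of -1.44 (SE 0.142, adjusted p = 1.91e-07), and Ccl5, a chemokine of effector T cells, at 29.9 ± 1.83 FPKM in control and 8.15 ± 0.959 in WMW-H, a difference of -1.76 (SE 0.0693, adjusted p = 1.3e-12). These were separated without overlap in all 10 libraries. AOM/DSS had means of 1.18 ± 0.109 for Cd8a, 1.26 ± 0.334 for Gzma and 7.05 ± 0.613 for Ccl5. Cd4, the co-receptor of helper T cells, which some macrophages also carry, was higher at 0.43 (adjusted p = 4.7e-05), as was Tcf7, a T cell factor that is also a Wnt target, at 0.48 (adjusted p = 6.03e-07). Foxp3, the factor of regulatory T cells, stayed under the expression filter, at 0.357 to 0.407 FPKM in control and 0.347 to 1.03 in WMW-H.

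Goblet cell genes were lower in 17 of 24 members and higher in 4. Spdef, the factor that drives goblet cell maturation, was at 131, 124, 136, 124 and 128 FPKM in control and 57.996, 58.96, 56.4, 59.5 and 59.4 in WMW-H, a log2 difference of -1.13 (SE 0.0286, adjusted p = 3.17e-15). Muc2, the main gel-forming mucin, was at 1434, 1368, 1407, 1400.2 and 1437 in control and 1095, 1029, 1301, 1085 and 1100.0 in WMW-H, a difference of -0.33 (SE 0.0444, adjusted p = 6.42e-06). Fcgbp, which is built into the mucus, was at 941 ± 10.8 FPKM in control and 508 ± 21.5 in WMW-H, a difference of -0.89 (SE 0.0244, adjusted p = 9.34e-15), and Retnlb at 1339 ± 72.8 FPKM in control and 511 ± 49.1 in WMW-H, a difference of -1.39 (SE 0.06, adjusted p = 4.17e-12). The means fell to a lower share of control for Spdef (0.454) and Retnlb (0.382) than for Muc2 (0.796), and WMW-H replicate 3 held the highest Muc2 and the lowest Retnlb of its group. After quantile normalization the Muc2 difference was -0.07 and no longer called. Tff3, the trefoil peptide of goblet cells, went against the list, at 677 ± 34.9 FPKM in control and 853 ± 38.7 in WMW-H, a difference of 0.33 (SE 0.038, adjusted p = 1.04e-06). AOM/DSS was at 53.5 ± 1.3 for Spdef, 817 ± 19.2 for Muc2, 672 ± 6.25 for Fcgbp and 318 ± 19.6 for Retnlb.

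Absorptive functions were lower in part. In the colonocyte list 8 of 33 tested members were higher and 19 were lower, and with the GC trend removed 6 and 24. Slc26a3 and Slc9a3, the chloride-bicarbonate and sodium-proton exchangers that absorb salt, were at 147, 135, 139, 136 and 139 and 107, 105, 103, 103 and 105 in control and at 77.1, 77.4, 76.9, 79.8 and 80.1 and 51.2, 50.8, 50.2, 49.8 and 51.4 in WMW-H. Control exceeded WMW-H in every library, with differences of -0.82 (SE 0.0244, adjusted p = 2.62e-14) and -1.03 (SE 0.0235, adjusted p = 6.86e-16). Aqp8, a water channel, and Guca2a, guanylin, were lower at -0.66 (adjusted p = 1.52e-07) and -0.41 (adjusted p = 1.11e-08), the latter not after quantile normalization, at -0.02. Atp12a, a colonic proton-potassium pump, was higher, at 5.44 ± 0.445 FPKM in control and 21.7 ± 0.549 in WMW-H, a difference of 1.82 (SE 0.0448, adjusted p = 2.09e-15). Clca4b (ENSMUSG00000074195), a calcium-activated chloride channel regulator, was among the 10 largest rises, at 3.89, 3.15, 3.4, 4.05 and 4.29 in control and 58.1, 56.9, 63.5, 58.99 and 61.6 in WMW-H, a difference of 3.68 (SE 0.0541, adjusted p = 1.39e-18), with AOM/DSS at 89.5 ± 1.05. Among tight junction genes 15 of 25 were higher and 5 lower (11 and 4 with the GC trend removed), with the sealing claudin Cldn4 at 1.33 (adjusted p = 1.82e-13) and the cation-pore claudin Cldn15 at -0.68 (adjusted p = 2.16e-13).

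Rare epithelial types were less uniform. Of 18 enteroendocrine genes, 6 were higher and 4 lower, shares near those over all genes tested, and 5 and 6 with the GC trend removed. Chga, a granule protein of these cells, had an interval of -0.01 to 0.12, and Gcg, the glucagon-like peptide precursor, of 0 to 0.19. Gcg was called higher without control replicate 5, at 0.12, and Chga with the GC trend removed, at 0.16, and both without the mitochondrially encoded genes, at 0.16 and 0.13. Nts, neurotensin, was higher at 0.82 (adjusted p = 2.25e-08), and Sst, somatostatin, lower at -1.05 (adjusted p = 1.46e-10). Of 10 tuft cell genes, 6 were lower and 1 higher, and Trpm5, the cation channel of their taste-like signalling, was at -0.70.

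Several other genes were far below control, and the abundant Sprr2a2 fell by less. Mptx1 (ENSMUSG00000026531), a mucosal pentraxin, was at 2339, 2369, 2325, 2333 and 2293 FPKM in control and 287, 307, 321, 297 and 285 in WMW-H, a log2 difference of -2.96 (SE 0.0312, adjusted p = 3.63e-20). Pla2g4c (ENSMUSG00000033847), a cytosolic phospholipase A2, was at 61.2, 59.8, 60.2, 60.97 and 57.98 in control and 10.3, 11.2, 11.9, 10.7 and 11.2 in WMW-H, a difference of -2.34 (SE 0.0382, adjusted p = 6.72e-18). Upp1 (ENSMUSG00000020407), uridine phosphorylase, was at 162, 171, 184, 162 and 169.6 in control and 39.6, 41.7, 41.6, 39.2 and 45.1 in WMW-H, a difference of -2.01 (SE 0.046, adjusted p = 7.56e-16). All 3 were low in every WMW-H library, and their AOM/DSS means were lower still, 187 ± 6.7 for Mptx1, 5.37 ± 0.202 for Pla2g4c and 33.1 ± 1.86 for Upp1. Retnla, a resistin-like protein of type 2 immune responses, was at 18.4, 19.4, 18.9, 22.8 and 23.03 in control and 4.68, 3.19, 3.58, 2.36 and 3.27 in WMW-H, a difference of -2.30 (SE 0.117, adjusted p = 4.01e-11), with AOM/DSS at 3.84 ± 0.626. Sprr2a2, a small proline-rich protein, was the most abundant gene to fall, at 17856 ± 159 FPKM in control and 13911 ± 412 in WMW-H, a difference of -0.36 (SE 0.0198, adjusted p = 1.04e-10). It has near-identical copies that share its reads.

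Transcripts of other tissues differed in amount between the groups. Of the exocrine pancreas list, digestive enzymes accounted for most of the lower members. Try4, a trypsin, was at 2917, 2908, 2932, 2926 and 2936 FPKM in control and 720.5, 741, 777, 727 and 719 in WMW-H, and Cela2a, an elastase, at 4009, 4056, 4256, 4118 and 4117 and 1393, 1388, 1220.3, 1345 and 1369.7. Both were far apart between groups and nearly constant within them, with log2 differences of -1.99 (SE 0.0222, adjusted p = 6.13e-20) and -1.61 (SE 0.0302, adjusted p = 5.19e-17). Ctrl, a chymotrypsin-like protease, and Pla2g1b, a pancreatic phospholipase, were lower at -1.86 (adjusted p = 8.65e-19) and -2.03 (adjusted p = 2.6e-12). Ins2, insulin, was at 5.05, 5.9, 7.09, 5.11 and 4.63 in control and 0.541, 0.359, 1.34, 0.634 and 0.939 in WMW-H, a difference of -1.91 (SE 0.124, adjusted p = 8.94e-10). The AOM/DSS means were 451 ± 10.2 for Try4 and 945 ± 10.6 for Cela2a, and Ins2 was listed at 0 in all 5 AOM/DSS libraries. Adipocyte genes were lower in 12 of 13 members and higher in 1, and their share of all FPKM was 0.0903% in control and 0.049% in WMW-H. Adipoq, adiponectin, was at 22.4, 21.05, 19.8, 23.9 and 19.6 in control and 9.7, 10.3, 9.13, 10.96 and 10.97 in WMW-H, a difference of -0.995 (SE 0.056, adjusted p = 1.43e-10). Cfd, adipsin, was at 140.4 ± 6.43 FPKM in control and 45.8 ± 5.3 in WMW-H, a difference of -1.60 (SE 0.0603, adjusted p = 6.59e-13). Of small-intestinal enterocyte genes 14 of 15 were lower, and Fabp6, the bile acid binding protein of the ileum, was at 3.36, 2.75, 2.67, 3.23 and 5.01 in control and 0.73, 0.114, 0.128, 1.23 and 0.382 in WMW-H. Of 21 genes of enteric neurons and glia, 13 were lower and 2 higher (12 and 0 with the GC trend removed), with Prph, the filament protein of peripheral neurons, at -0.90 (adjusted p = 1.25e-06) and Uchl1, a neuronal hydrolase, at -0.77 (adjusted p = 4.19e-07). Seminal vesicle genes, which reached 867 ± 26.3 for Svs4 in AOM/DSS, were near 0 in both groups compared, Svs4 at 0 to 1.24 in control and 0 to 1.34 in WMW-H. The part of sampled tissue in these differences was not tested.

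The pathway in the series title was measured at low levels. Ido1 is the enzyme that turns tryptophan toward kynurenine, and Ahr is the receptor that kynurenine can activate. Ido1 (ENSMUSG00000031551) was at 9.87, 10.03, 8.48, 8.72 and 9.4 FPKM in control and 7.53, 7.51, 6.38, 6.23 and 6.54 in WMW-H. The control libraries were all higher, with a log2 difference of -0.40 (SE 0.0985, adjusted p = 0.00241), and AOM/DSS was lower than both, at 3.33 ± 0.722. Ahr was at 4.12, 3.86, 3.62, 3.51 and 3.81 in control and 4.24, 3.8, 3.54, 4.47 and 4.7 in WMW-H, with overlapping groups and an interval of -0.03 to 0.23. It was called higher without WMW-H replicate 3, at 0.15, and without the mitochondrially encoded genes, at 0.16. Of its targets, Tiparp, a feedback repressor, was at 4.37, 5.45, 5.47, 4.96 and 4.98 in control and 4.43, 4.71, 4.02, 4.04 and 4.17 in WMW-H, overlapping groups with a difference of -0.20 (SE 0.0694, adjusted p = 0.0227). That call was lost in an exact rank sum test (adjusted p = 0.0581) and without WMW-H replicate 4 or control replicate 2 or 3 (adjusted p of 0.0518, 0.0583 and 0.0598 in limma). Without the mitochondrially encoded genes it was lost too (adjusted p = 0.0934 in limma). Nqo1, a quinone reductase that NRF2 also controls, was at 28.7, 30.6, 29.4, 27.1 and 31.7 in control and 36.4, 34.8, 35.1, 36.8 and 39.3 in WMW-H, a difference of 0.30 (SE 0.0422, adjusted p = 1.27e-05). Cyp1a1, the most inducible target, was under the filter, at 0.204 to 0.489 in control and 0.14 to 0.333 in WMW-H. Tiparp and Nqo1 thus differed in opposite directions in the main test, with the Tiparp call dependent on the setting. In the kynurenine list 0 of 8 tested members were higher and 6 were lower, beside 35.4% and 24.1% of all genes tested. In the AHR list 2 of 7 tested members were higher and 3 were lower. Of these 7, 4 had an interval wholly within 0.32 on the log2 scale, and the median was 0.10. Il4i1, an amino acid oxidase of immune cells, was lower at -0.52 (adjusted p = 4.67e-04) and Wars1, the interferon-induced tryptophan tRNA synthetase, at -0.25 (adjusted p = 3.32e-06).

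Mitochondrially encoded genes were higher, and WMW-H replicate 3 stood out in them. 11 of 13 tested members were higher and 0 were lower, and their share of all FPKM was 8.21% ± 0.0893 in control, 12.9% ± 1.38 in WMW-H and 8.24% ± 0.0813 in AOM/DSS (SD, n = 5). mt-Co1, a subunit of cytochrome c oxidase, was at 12252, 12014, 12078, 12155 and 12137 FPKM in control and 23325, 23725, 28478, 23893 and 23263 in WMW-H, the largest rise in absolute FPKM, with a difference of 1.01 (SE 0.0415, adjusted p = 2.17e-12). mt-Nd1, of complex I, was at 3749.7, 3740.2, 3731, 3764 and 3778 and 5755, 5894, 7845, 5878 and 5579, a difference of 0.71 (SE 0.0643, adjusted p = 6.51e-08). mt-Atp6, of the ATP synthase, was at 5275, 5426, 5100.3, 5409 and 5364 and 4889, 5011, 6154, 5062 and 4979, with overlapping groups, and without replicate 3 it was called lower, at -0.09. Replicate 3 was the highest WMW-H library for all 3 genes, and without it the list had 11 higher members and 1 lower. Respiratory chain subunits made in the nucleus did not rise with them. 2 of 29 tested members were higher and 14 were lower. The counts with the GC trend removed were 2 and 18. When mitochondrially encoded genes were left out and libraries rescaled the counts were 8 and 13.

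Antioxidant genes controlled by NRF2 were higher in 14 of 21 members and lower in 4. Srxn1, which repairs oxidised peroxiredoxins, was higher at 0.52 (SE 0.0262, adjusted p = 3.1e-11), Txnrd1, thioredoxin reductase, at 0.55 (adjusted p = 4.71e-11) and Hmox1, heme oxygenase, at 0.89 (adjusted p = 6.63e-09). Keap1, the inhibitor of NRF2, was lower at -0.42 (adjusted p = 6.46e-08). Of 37 cytochrome P450 and conjugation genes, 11 were higher and 21 lower, and 8 and 22 with the GC trend removed. Cyp2s1, an extrahepatic P450, was at 57.1 ± 1.23 FPKM in control and 27.6 ± 1.17 in WMW-H, a difference of -1.02 (SE 0.0358, adjusted p = 2.54e-13), and the abundant Cyp2c55 was higher at 0.21 (adjusted p = 2.26e-08).

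Circadian clock genes differed in a pattern of their own. 2 of 17 tested members were higher and 11 were lower. Dbp, an output factor of the clock, was at 41.5, 39.8, 46.4, 42.6 and 40.2 FPKM in control and 19.05, 18.9, 14.1, 16.9 and 17.6 in WMW-H, and Per2, a repressor of the clock, at 4.43, 4.59, 5.15, 4.69 and 4.31 and 2.22, 2.3, 2.45, 2.09 and 2.44. Their differences were -1.24 (SE 0.0653, adjusted p = 5.84e-11) and -0.77 (SE 0.0547, adjusted p = 3e-09). Arntl, the activator BMAL1, whose transcript cycles in antiphase to these, was higher, at 4.17 ± 0.298 FPKM in control and 8.66 ± 0.658 in WMW-H, a difference of 0.90 (SE 0.0588, adjusted p = 9.95e-10). AOM/DSS was at 20.9 ± 0.907 for Dbp and 6.7 ± 0.459 for Arntl. The time of collection and the group cannot be told apart, since no collection time is given.

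**Figure D5:**
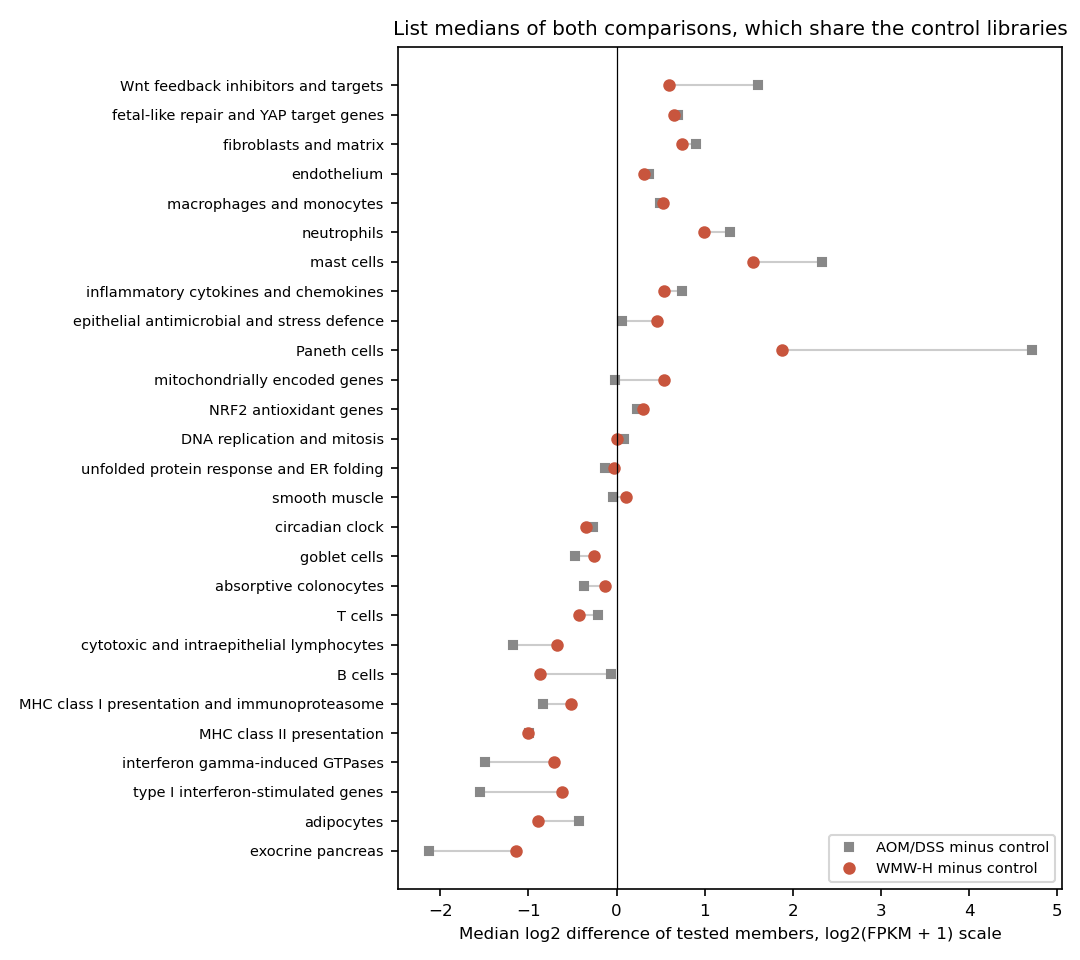
Median log2 difference of the tested members of 27 lists, for WMW-H minus control (circles) and AOM/DSS minus control (squares), on the log2(FPKM + 1) scale. The 2 comparisons share their control libraries, so the closeness of points is not a result. The Paneth list lies at 1.88 in WMW-H and the exocrine pancreas list at -1.14.

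The remaining lists had members in both directions, beside shares of 35.4% higher and 24.1% lower over all genes tested. In cholesterol and fatty acid synthesis 11 of 31 tested members were higher and 14 were lower, in fatty acid oxidation and ketogenesis 10 of 28 tested members were higher and 10 were lower, and in the unfolded protein response 10 of 27 tested members were higher and 10 were lower. With the GC trend removed these counts were 5 and 16, 4 and 11, and 6 and 15. Fasn, fatty acid synthase, was lower at -0.57 (adjusted p = 3.6e-12) and Cyp51, a sterol demethylase, higher at 0.36 (adjusted p = 1.37e-09). Glycolysis and hypoxia genes were higher in 6 and lower in 13 of 25. Slc16a3, a lactate exporter, was higher at 1.02 (adjusted p = 1.94e-08). Cytosolic ribosomal protein genes were higher in 22 of 30 and lower in 3. Of 18 immediate early genes, which respond within minutes to handling, 6 were higher and 8 lower (7 and 4 with the GC trend removed), and of 16 heat shock chaperone genes 5 were higher and 7 lower. Egr1 and Jun, immediate early factors, were at -0.43 (adjusted p = 1.82e-06) and 0.48 (adjusted p = 2.72e-09), in opposite directions. In prostaglandin synthesis and reception, 5 of 17 were higher and 5 lower, and with the GC trend removed 3 and 6. Ptgs2, the inducible cyclooxygenase, was at 0.998 ± 0.344 FPKM in control and 1.16 ± 0.147 in WMW-H, with an interval of -0.07 to 0.32, and was called higher at 0.22 without control replicate 5. Alox12, a lipoxygenase, was higher at 1.49 (adjusted p = 2.16e-10).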

How the data were processed

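Polyadenylated RNA of mouse colon was sequenced in 15 libraries, 5 per group. The authors deposited 1 table of FPKM values, with an identifier and symbol per gene. Tools listed in the submitters' processing notes, with no roles or order, were HISAT2, RSEM, StringTie 1.3.1, Bowtie2 2.2.8 and fastp 0.18.0. Build and annotation are not given in the sources used here. FPKM totals were 526612 to 534486 per control library and 526980 to 535410 per WMW-H library, so totals differed between libraries. The depth estimate used steps of low values in 3328 genes with 1 transcript in GENCODE M21, where 89.8% of 7080 low values lay within 0.1 of a whole fragment, against 20% by chance.

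Values were fitted as log2(FPKM + 1) with limma 3.58.1 in R 4.3.3, a mean per group over all 15 libraries, with moderation by trend, a two-sided contrast and Benjamini-Hochberg adjustment over 12917 genes at a threshold of 0.05. Adding 1 to FPKM understates the change of low genes. Tested on simulated data of 12494 genes, this comparison found 46 of the 46 genes altered 2-fold and 45 of the 50 altered 1.5-fold. It found 31 of the 47 altered 1.25-fold and 11 of the 48 altered 1.1-fold, and 6 of its 139 calls were false. The simulated libraries were independent, with few altered genes and no GC trend or outlying library. These numbers therefore do not give the error rate of the calls made here. The members and the 51 gene lists were chosen with earlier results of these data known, so lists are described by counts and medians with no test. Named genes were the 10 largest rises and falls among calls without overlap, leaving out variable segments, pseudogenes and unnamed models, the 5 largest in mean FPKM each way, up to 4 members per list with the smallest p and called members against the list's direction, and Ido1, Ahr, Tiparp, Nqo1 and Cyp1a1. Other genes were named for their known roles after their values were seen, and some genes that the rule names are not reported here. Alternatives were pseudocounts, filters, scalings, a rank test, array weights, fewer libraries and, added after seeing the data, leaving out mitochondrially encoded genes and removing the GC trend.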

Additional observations from a re-analysis of the deposited data

Results flagged for a closer look

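Among 368 groups of 5 libraries, 1 per named gene and group, 31 held a library far from the other 4, its gap to the nearest being over 0.71 of the group's range. Chance flags about 1 in 20 groups. WMW-H replicate 3 was that library in 16 of them.

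In WMW-H replicate 3 the FPKM was above the other libraries of its group for Guca2a (1456 against 1258 to 1302), Igkc (3351 against 3012 to 3074), Muc2 (1301 against 1029 to 1100.0), mt-Atp6 (6154 against 4889 to 5062), mt-Co1 (28478 against 23263 to 23893), mt-Nd1 (7845 against 5579 to 5894). It was below them for Cela2a (1220.3 against 1345 to 1393), Col1a1 (38.8 against 42.9 to 44.4), Epcam (818 against 887 to 899), Igha (2366 against 2562 to 2613), Jchain (335 against 380.0 to 387), Oas1a (49.7 against 57.7 to 58.4), Reg3b (674 against 773 to 812), Reg3g (117 against 140.2 to 149), Retnlb (427 against 521 to 555), S100g (4.33 against 5.51 to 5.9).

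In other WMW-H libraries, replicate 5 was high for Ascl2 (3.995 against 3.11 to 3.23), replicate 5 was high for Hpgds (2.21 against 1.6 to 1.77), and replicate 2 was low for Nkd1 (40.6 against 44.2 to 44.8).

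Control replicate 1 was high for Prox1 (1.09 against 0.709 to 0.798) and low for S100g (16.5 against 19.1 to 19.9). Control replicate 2 was high for Ccl5 (33.1 against 28.7 to 29.6), Ighv2-2 (217 against 162 to 175), Il18 (13.5 against 12.5 to 12.7) and low for Il4i1 (1.57 against 1.91 to 2.04). Control replicate 3 was low for Nos2 (2.92 against 3.37 to 3.5). Control replicate 4 was high for Cyp2s1 (59.2 against 56.2 to 57), Ifit1 (42.3 against 39 to 39.5), Il33 (2.7 against 2 to 2.16) and low for Igtp (39 against 40.6 to 41.1). Control replicate 5 was high for Ptgs2 (1.6 against 0.765 to 0.979).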

How the results depend on the processing

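Among 183 named genes, no call became a call in the other direction, and 161 kept their side of the threshold under all alternatives run for them. There were 24 alternatives, and 26 genes had 22 or 23 because a filter removed them or they were left out. The differences of 12 genes that did not pass the test changed sign under at least 1 alternative. The number called higher ran from 4368 to 4647 and lower from 2949 to 3031 when each library in turn was left out. At least 2-fold higher ran from 214 to 225 and lower from 117 to 122, and within 0.32 of control on the log2 scale from 5719 to 5952. With a pseudocount of 0.1, 413 genes were at least 2-fold higher and 182 lower, since less is added to low values. At that pseudocount 4869 genes lay within 0.32 of control. Without the filter, 10358 genes lay within that limit, among more genes tested. The exact rank sum test called 3779 higher and 2514 lower. Replicate numbers did not pair the libraries, since same-numbered libraries correlated at -0.0472 to 0.0298 in their deviations, and with a replicate block 4525 genes were higher and 3073 lower.

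The median of 14 of the 51 lists changed sign under at least 1 alternative. In 9 of these it lay near 0, at -0.02 to 0.10. In the other 5 it had been farther from 0 than its SD between libraries. With fewer members under a filter of 5 FPKM it changed sign for tuft cells (0.24), pancreatic islets (0.0915) and squamous epithelium (-0.17, also with the filter on the 10 libraries compared). Glycolysis and hypoxia changed sign without the mitochondrially encoded genes (0.00452) and immediate early genes with the GC trend removed (0.0196), and the cause was not tested. Depth of 16200000 to 21000000 fragments limits genes near 1 FPKM.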
